A study of Mus musculus with 1073 samples.

Results

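A set of 10 genes whose products mark tissue macrophages or serve their complement system, *Cx3cr1*, *C1qa*, *C1qb*, *C1qc*, *Adgre1*, *Trem2*, *Timd4*, *Cd68*, *Tyrobp* and *Fcer1g*, was followed through single cells of the mouse yolk sac. They were chosen by name, and all 10 were among the 15967 genes that passed the authors' filter. The cells were sorted by flow cytometry and captured 1 by 1. Of 1073 captured cells, 926 in 13 sorted populations passed the filter. The main series was the haematopoietic progenitor/colony forming cells (HPC), in which E8.25 gave 73 cells, E8.5 gave 89, E9.5 gave 46 and E10.5 gave 87, all from C57BL/6 yolk sacs; the labels also call them EMP. E8.25 and E8.5 HPCs were sorted as CD41+ CDH5+ cells free of TER119 with no use of CD45, and E9.5 and E10.5 HPCs as CD45+ cells with low CD41 and no CDH5 or TER119. The macrophage (Mac) reference, 25 cells of the E10.5 C57BL/6 yolk sac, was sorted as CD45+ and free of CD41 and TER119. Primitive erythroid cells (EryP; 66 cells at E8.5 and 3 at E10.5), megakaryocytes (Mk; 37 and 73) and endothelium (Endo; 79 and 61) came from C57BL/6 yolk sacs of the same days, and *Flk1*-GFP+ mesoderm of E7.25 and E7.75 (287 cells) from *Flk1*-GFP/+ embryos, which carry GFP at one copy of *Kdr*. Stage, gate and sequencing flow cell change together between E8.5 and E9.5 and cannot be told apart. The labels tie no cell to an embryo or a pool, so each population is 1 sample. No test between populations was made, and every interval below covers counting error over cells only.

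The first component of the classical complement pathway, C1q, is a protein built of A, B and C chains, encoded by *C1qa*, *C1qb* and *C1qc*, and macrophages are its main source. *Tyrobp* (DAP12) and *Fcer1g* (the FcR gamma chain) encode adaptors with an ITAM, the tyrosine motif through which immune receptors without a signalling tail of their own signal. TREM2, a lipid receptor, signals through TYROBP, and activating Fc receptors through the gamma chain. *Cx3cr1* encodes the fractalkine receptor, *Adgre1* the adhesion receptor F4/80, *Timd4* the phosphatidylserine receptor TIM4, and *Cd68* a glycoprotein of the lysosome membrane. Yolk sac macrophages are the earliest macrophages of the embryo and a source of microglia, which go on using most of these genes.

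In GENCODE M21, on the GRCm38 assembly, *C1qb* (chr4:136880129-136886187), *C1qc* (chr4:136889804-136893065) and *C1qa* (chr4:136895917-136898803) lie side by side on the minus strand within 18675 bases. The gaps are 3616 bases between *C1qb* and *C1qc* and 2851 between *C1qc* and *C1qa*. *Cx3cr1* lies at chr9:119901616-120069879 on the minus strand, and the span holds all or part of 9 other genes, of which 1, the antisense gene *Gm33858*, shares exon bases with it. The libraries do not mark strand, so reads in that shared stretch cannot be told apart. The other members overlap no annotated gene. They are *Adgre1* (chr17:57358691-57483527, plus strand), *Trem2* (chr17:48346401-48354147, plus), *Timd4* (chr11:46810800-46844332, plus), *Cd68* (chr11:69664213-69666153, minus), *Tyrobp* (chr7:30413760-30417585, plus) and *Fcer1g* (chr1:171229572-171234365, minus).

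RefSeq promoters (build GRCm38.p6, 250 bases before to 50 after the start) were matched for 7 of the 10 genes. The neighbours *C1qb* and *C1qc*, which were found in the same macrophages, are shown with *Cx3cr1*, first common at E9.5, and *Fcer1g*, already common at E8.25. They lie at chr4:136886151-136886450, chr4:136892865-136893164, chr9:120068247-120068546 and chr1:171234300-171234599, all on the minus strand. Capitals mark gaggaa, the core bound by PU.1 and other ETS factors, and tgtggt, the core bound by RUNX factors, on either strand.
C1qb: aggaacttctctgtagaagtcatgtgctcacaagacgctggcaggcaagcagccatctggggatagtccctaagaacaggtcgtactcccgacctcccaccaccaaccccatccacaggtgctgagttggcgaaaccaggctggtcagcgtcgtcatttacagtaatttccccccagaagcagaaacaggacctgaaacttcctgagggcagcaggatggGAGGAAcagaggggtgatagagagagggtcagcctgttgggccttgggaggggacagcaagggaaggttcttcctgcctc
C1qc: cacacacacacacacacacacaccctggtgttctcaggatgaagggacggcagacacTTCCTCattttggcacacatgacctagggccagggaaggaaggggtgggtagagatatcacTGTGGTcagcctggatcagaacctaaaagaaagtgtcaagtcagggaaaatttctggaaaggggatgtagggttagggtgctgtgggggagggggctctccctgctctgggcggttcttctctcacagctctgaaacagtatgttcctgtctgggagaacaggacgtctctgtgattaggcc
Cx3cr1: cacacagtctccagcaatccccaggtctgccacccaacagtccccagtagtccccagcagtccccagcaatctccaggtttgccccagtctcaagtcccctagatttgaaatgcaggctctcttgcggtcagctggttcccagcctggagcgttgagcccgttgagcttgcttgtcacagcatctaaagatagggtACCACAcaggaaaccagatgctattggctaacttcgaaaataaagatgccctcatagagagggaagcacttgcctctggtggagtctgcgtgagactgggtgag
Fcer1g: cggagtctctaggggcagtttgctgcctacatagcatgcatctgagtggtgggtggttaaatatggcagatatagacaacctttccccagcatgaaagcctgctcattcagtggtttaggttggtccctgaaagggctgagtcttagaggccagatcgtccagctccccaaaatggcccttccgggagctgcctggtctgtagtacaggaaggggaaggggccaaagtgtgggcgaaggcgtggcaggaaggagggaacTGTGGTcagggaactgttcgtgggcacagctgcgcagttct
The ETS core was in 4 of the 7 promoters (*C1qb*, *C1qc*, *Cd68* and *Trem2*) and in 28.3% of all 32851 promoters of this length. It begins 30 bases before the start of *C1qb* and 193 before that of *C1qc*. The RUNX core was in 3 of 7 (*C1qc*, *Cx3cr1* and *Fcer1g*) and in 16.8% of all, and begins 54 bases before the start of *Cx3cr1* and 10 after that of *Fcer1g*. Among 10 motifs searched, the AP-1 letters TGANTCA were in *Cd68* and *Trem2* (2 of 7, 7.81% of all), the C/EBP letters TTGCNNAA in the same pair (10.8% of all), and the MAF half-site TGCTGAC in *Timd4* alone (4.67% of all). The E-box CANNTG was in all 7 (72.3% of all). The longer PU.1 letters AAGGAAGT (2.23% of all), TATAAA (13.6%), CACGTG (7.15%), itself a form of CANNTG, and TCACGTGA, which holds CACGTG (0.974%), were in none. A match describes letters, not a bound site.

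Total counts per cell ran from 483830 to 5943204 (median 1887348). The HPC medians lay between 1555237 at E8.5 and 3082738 at E9.5, and the Mac median was 3422342. A gene was held by a cell at 1 read count or more, and levels are the deposited CPM, scaled by a size factor per cell. Reads were counted, not molecules. E10.5 Mac held 14 of 15 macrophage identity genes, and their summed level was 2166 to 23128 CPM per cell (median 7808). That sum does not separate Mac from endothelium, since it had a median of 8541 CPM in E10.5 Endo, where *Csf1r*, *Spi1* and *Ptprc* were at 0. E10.5 HPCs held all 10 progenitor genes, at a summed 52.1 to 11877 CPM (median 1864). Mac and E10.5 EryP shared a sequencing lane. Of the 3 E10.5 EryP cells, 2 held members, at 1 or 2 counts each, and the part of the shared lane in this was not tested. E8.5 EryP served as the cells that should lack these genes (median depth 2099063). They were sequenced on another flow cell than E9.5 and E10.5 HPCs and Mac, so they give no background for that flow cell.

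Across the 13 populations each of the 10 genes had its highest mean in E10.5 Mac except *Timd4*, whose highest mean was in E10.5 HPCs. In Mac the mean per kb of exon was highest for *C1qb* at 1033 CPM per kb, then *Fcer1g* at 878, *Tyrobp* at 813, *Cx3cr1* at 213 and *Cd68* at 176. *Adgre1* (73.7), *C1qa* (70.3), *C1qc* (59.9), *Trem2* (5.89) and *Timd4* (3.29 CPM per kb) followed. In E10.5 HPCs the 2 adaptor genes led instead, with *Tyrobp* at 335 and *Fcer1g* at 309 CPM per kb, and *C1qb* followed at 91.8. Outside HPCs, Mac and the few E10.5 EryP most of the genes were rare. *C1qa*, *C1qb*, *C1qc*, *Adgre1* and *Timd4* were found in no mesoderm, E8.5 EryP, Mk or endothelial cell, and *Trem2* in 2 of 73 E10.5 Mk only. *Cx3cr1* reached 4 of 73 E10.5 Mk (5.48%).

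**Figure D1:**
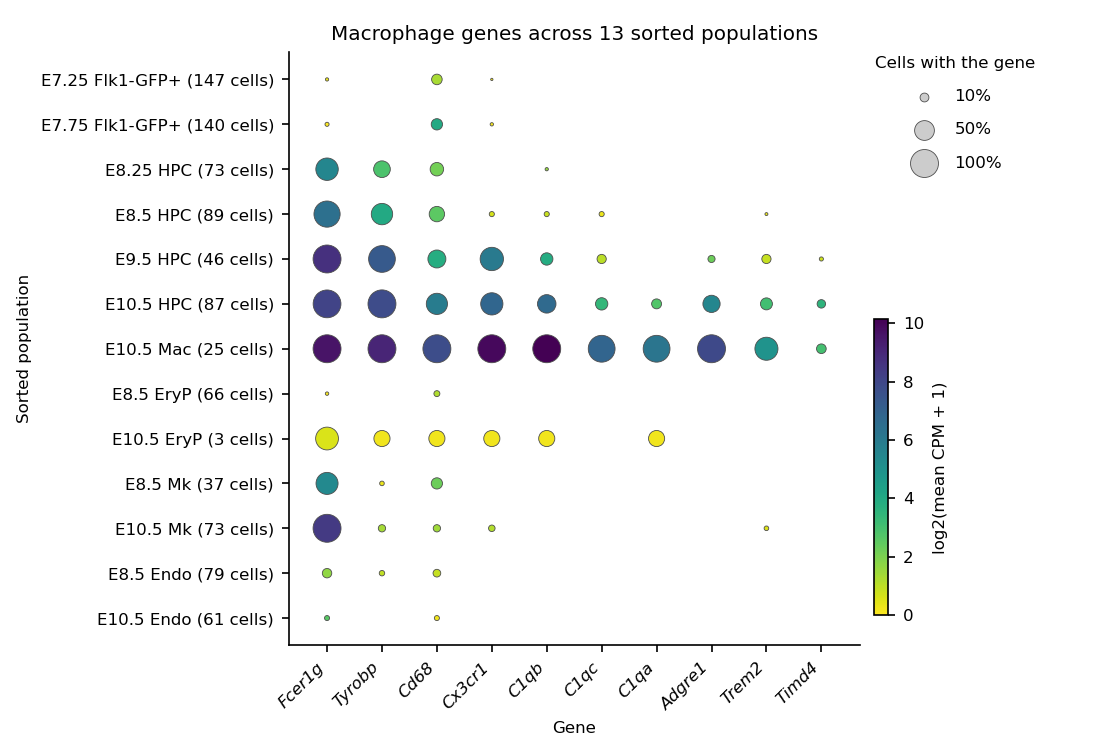
Dot area gives the share of cells with at least 1 count of each gene (columns) in each sorted population (rows, with the number of cells), and colour gives log2(mean CPM + 1). E10.5 Mac have large dots for every gene but *Timd4*, and *Fcer1g* alone is as common in E10.5 Mk, in 100% of cells. The E10.5 EryP row rests on 3 cells with at most 2 counts per gene.

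The 3 genes of the early group were present in the first HPCs sorted. *Fcer1g* was held by 47 of 73 E8.25 HPCs (64.4%, exact 95% interval 52.3 to 75.2), 78 of 89 at E8.5 (87.6%, 79.0 to 93.7), 46 of 46 at E9.5 and 86 of 87 at E10.5 (98.9%), against 1 of 66 E8.5 EryP (1.52%). Its medians were 1.99, 66.6, 211 and 199 CPM in that order, with ranges of 0 to 343, 0 to 460, 1.395 to 9773 and 0 to 1097 CPM. Mac ran from 32.2 to 3374 CPM (median 709), so the top of the HPC range overlapped them. The E9.5 mean of 421 CPM rested on 1 cell at 9773 CPM, which held 50.5% of the signal. Without the highest cell of each stage the means were 213 CPM at E9.5 and 261 at E10.5, and their order turned round.

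Leaving E10.5 EryP aside, *Fcer1g* was the only member common in another lineage. It was found in 23 of 37 E8.5 Mk (62.2%, 44.8 to 77.5, mean 40.7 CPM) and in 73 of 73 E10.5 Mk, where the mean was 342 CPM and the median 284. Platelets use the gamma chain with the collagen receptor GPVI. *Tyrobp* was found in 1 of 37 and 5 of 73 of these cells, at means of 0.229 and 1.61 CPM. The 2 adaptors thus parted in megakaryocytes, while 86 of 87 E10.5 HPCs held both.

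*Tyrobp* was held by 26 of 73 E8.25 HPCs (35.6%, 24.8 to 47.7), 52 of 89 at E8.5 (58.4%, 47.5 to 68.8), 42 of 46 at E9.5 (91.3%, 79.2 to 97.6) and all 87 at E10.5. No E8.5 EryP held it. The medians were 0, 3.10, 94.6 and 106.8 CPM, and the highest cells 65.6, 133.2, 742 and 1575 CPM. In Mac the values ran from 3.92 to 1837 CPM with a median of 516. At E8.25, 22 cells held *Fcer1g* and no other member and 4 held *Tyrobp* alone, and at E8.5 these were 20 and 0 cells.

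*Cd68* was held by 17 of 73 HPCs at E8.25 (23.3%, 14.2 to 34.6), 27 of 89 at E8.5 (30.3%, 21.0 to 41.0), 19 of 46 at E9.5 (41.3%, 27.0 to 56.8) and 50 of 87 at E10.5 (57.5%, 46.4 to 68.0). It is the member with the weakest contrast to other cells: it was in 14.3% of E7.25 and 16.4% of E7.75 mesoderm cells, 16.2% of E8.5 Mk and 4.55% of E8.5 EryP. The median was 0 CPM at the first 3 HPC stages and 0.615 at E10.5, with highest cells at 69.6 CPM at E8.25, 142.5 at E8.5 and 1084 at E10.5. Every Mac held it, at 0.425 to 1141 CPM (median 80.3). The E7.75 mean of 15.2 CPM lay above that of E8.5 HPCs (4.90) and included 1 cell at 1763 CPM.

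*Cx3cr1* changed most sharply between 2 neighbouring stages. It was found in 0 of 73 E8.25 HPCs, which allows a share of up to 4.11%, in 3 of 89 at E8.5 (3.37%, 0.701 to 9.54), in 32 of 46 at E9.5 (69.6%, 54.2 to 82.3) and in 55 of 87 at E10.5 (63.2%, 52.2 to 73.3). Many of these held few reads: 14 of the 32 and 29 of the 55 had 1 to 9 counts, and 39.1% and 29.9% of all cells had 10 or more. The medians were 0.714 CPM at E9.5 and 0.617 at E10.5, while the highest cells reached 1012 and 2003 CPM. Mac ran from 9.54 to 4087 CPM. The Mac median of 672 CPM lay above most HPCs but within the HPC range, and the highest Mac lay above that range.

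The C1q genes were found in fewer HPCs than *Cx3cr1* at E9.5 and E10.5. *C1qb* was held by 1 of 73 (1.37%), 3 of 89 (3.37%), 9 of 46 (19.6%, 9.36 to 33.9) and 38 of 87 HPCs (43.7%, 33.1 to 54.7) in stage order. *C1qc* was held by 0, 3, 5 (10.9%, 3.62 to 23.6) and 17 cells (19.5%, 11.8 to 29.4), and *C1qa* by none before E10.5, where 11 of 87 held it (12.6%, 6.48 to 21.5). The 0 of 46 cells for *C1qa* at E9.5 allows a share of up to 6.52%. At 10 counts or more the E10.5 shares were 17.2% for *C1qb* and 9.20% for both *C1qc* and *C1qa*, since 23 of the 38 *C1qb* cells had 1 to 9 counts.

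The medians of all 3 C1q genes were 0 CPM at every HPC stage, and the E10.5 means were carried by few cells. The highest E10.5 HPC held 2568 CPM of *C1qb*, 174 of *C1qc* and 156.2 of *C1qa*. The 9 highest cells for each gene held 98.4% of the *C1qb* signal, 99.5% of *C1qc* and 99.8% of *C1qa*. In Mac *C1qb* ran from 0.734 to 6438 CPM (median 960), *C1qc* from 0 to 538 (median 56.7) and *C1qa* from 0 to 412 (median 34.3). All 3 chains were found together in 22 of 25 Mac (88%), in 9 of 87 E10.5 HPCs (10.3%) and in no earlier HPC. At 10 counts or more the Mac shares were 96% for *C1qb*, 80% for *C1qc* and 60% for *C1qa*. Of 42 E10.5 HPCs with any chain, 27 held only 1 of the 3. The share of C1q reads that came from *C1qb* was 85.9% in E10.5 HPCs and 83.3% in Mac, with *C1qc* at 8.97% and 10.2% and *C1qa* at 5.10% and 6.57%, so the order of the chains was the same in both populations. Counts of the chains are not per length.

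*Adgre1*, *Trem2* and *Timd4* are the genes of F4/80, the lipid receptor and TIM4. *Adgre1* was found in no E8.25 or E8.5 HPC, in 3 of 46 at E9.5 (6.52%, 1.37 to 17.9) and in 33 of 87 at E10.5 (37.9%, 27.7 to 49.0), of which 18 had 10 or more counts. The highest E10.5 HPC held 1202 CPM, near the top of the Mac range (0.142 to 1453 CPM, median 120). *Trem2* was found in 0, 1, 5 (10.9%) and 16 cells (18.4%, 10.9 to 28.1), with 15 of the 16 at 10 or more counts. Its E10.5 HPC range of 0 to 156.2 CPM lay within that of Mac (0 to 300 CPM, median 2.08), where 17 of 25 cells held it (68%, 46.5 to 85.0). Of those 17 Mac, 9 had 1 to 9 counts, and 8 of 25 (32%) had 10 or more. *Timd4* was rare in all groups: 1 of 46 HPCs at E9.5, 8 of 87 at E10.5 (9.20%, 4.05 to 17.3) and 3 of 25 Mac (12%, 2.55 to 31.2). Its mean in E10.5 HPCs, 11.1 CPM, was above that in Mac, 7.14 CPM, but 1 HPC at 783 CPM held 81.3% of the signal, and without the highest cell of each group the means were 2.09 and 0.764 CPM.

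**Figure D2:**
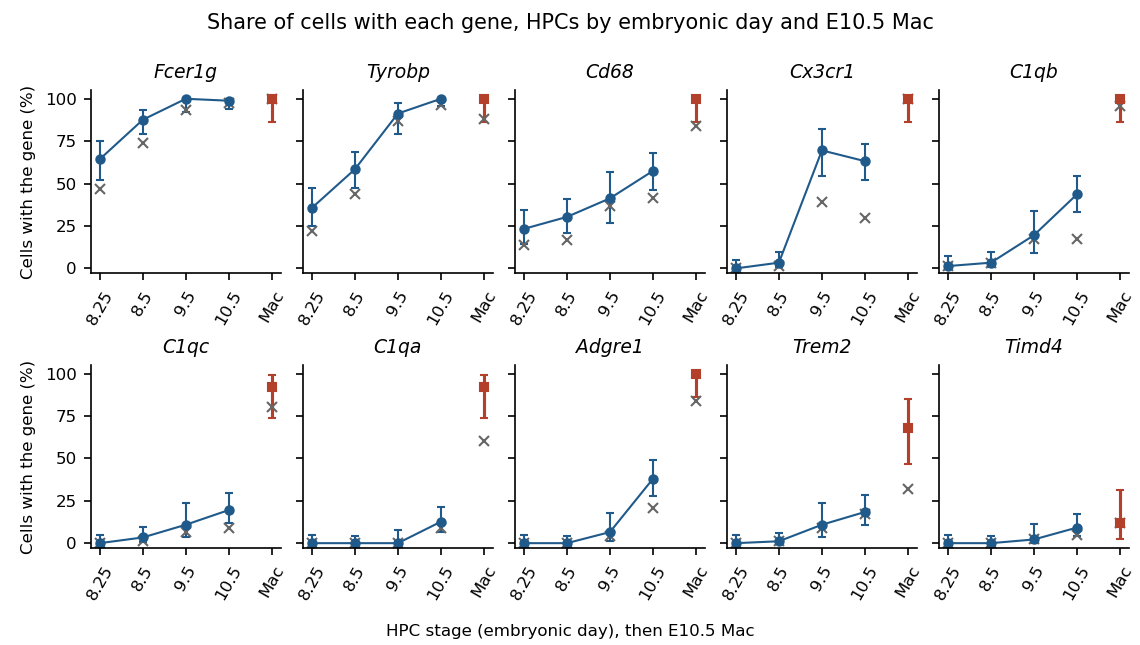
For each gene, circles give the share of HPCs with at least 1 count at E8.25, E8.5, E9.5 and E10.5 and the square that of E10.5 Mac, with exact 95% intervals over cells, and crosses give the share with 10 or more counts. *Fcer1g*, *Tyrobp* and *Cd68* are present from E8.25, *Cx3cr1* goes from 3.37% at E8.5 to 69.6% at E9.5, and the C1q genes, *Adgre1* and *Trem2* are highest among HPCs at E10.5.

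**Figure D3:**
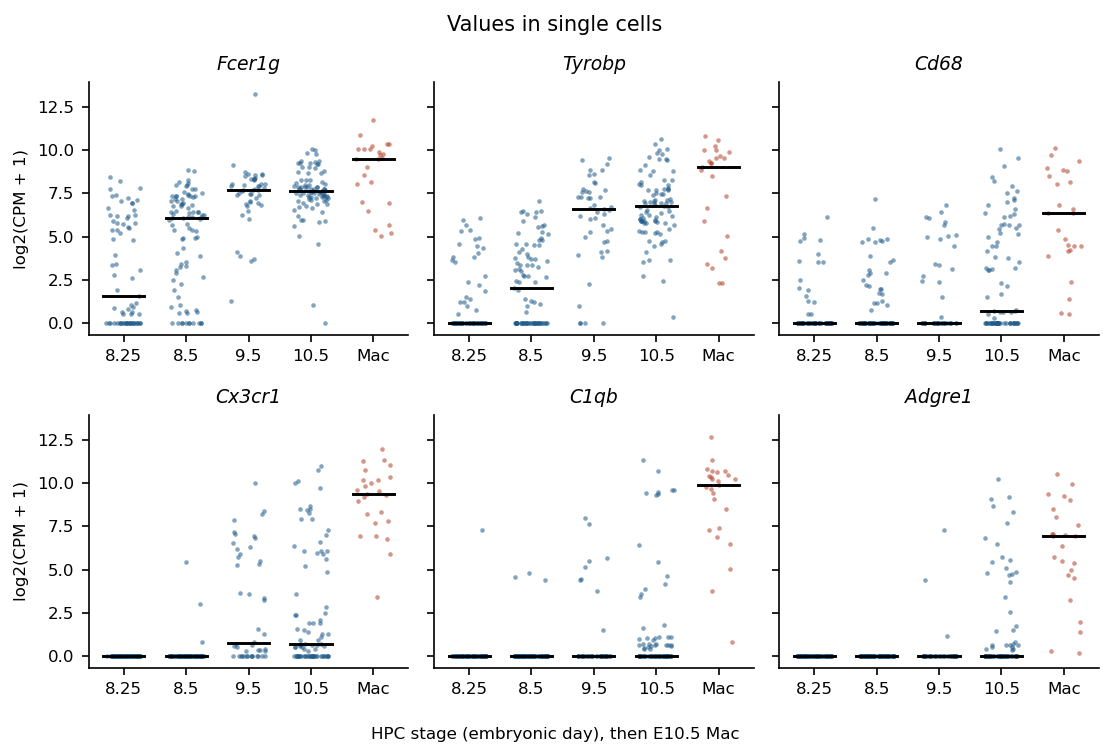
Each point is a cell, with log2(CPM + 1) on the y axis and the HPC stage or E10.5 Mac on the x axis, and lines mark medians. The *C1qb* median is 0 at each HPC stage while a few E10.5 HPCs reach Mac levels, whereas the *Fcer1g* and *Tyrobp* medians move for the whole population.

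Onset was set as the first HPC stage at which 10% or more of the cells held the gene and the lower bound of the share exceeded the share in E8.5 EryP. By this rule *Fcer1g*, *Tyrobp* and *Cd68* began at E8.25 (3 of 10 members, as did 29.5% of all genes), none at E8.5 (12.4% of all genes), *Cx3cr1*, *C1qb*, *C1qc* and *Trem2* at E9.5 (4 of 10, 5.71% of all) and *C1qa* and *Adgre1* at E10.5 (2 of 10, 6.39% of all). *Timd4* did not reach 10% at any stage. Onset at E9.5 or E10.5 therefore held for 6 of 10 members and for 12.1% of all genes. *Cd68* moved to E8.5 with the threshold at 25% and to E10.5 at 50%. At 25% *C1qb* moved to E10.5, and *C1qa*, *C1qc* and *Trem2* had no onset. At 50% *Tyrobp* moved to E8.5, and *C1qb* and *Adgre1* had no onset either. *Fcer1g* stayed at E8.25 and *Cx3cr1* at E9.5 under both thresholds. The lower bound of *Cd68* at E8.25 (14.2%) lay under its share in E7.25 mesoderm (14.3%), E7.75 mesoderm (16.4%) and E8.5 Mk (16.2%). At 10 counts or more *Trem2* moved to E10.5 and *C1qa* and *C1qc* had no onset, on cells thinned to 840000 counts *C1qc* moved to E10.5, and on all captured cells *Trem2* did. The rule measured no background for the flow cell of E9.5 and E10.5 HPCs. All 25 captured E10.5 EryP were on that flow cell, in the Mac lane. Their share holding a member ran from 0% for *Trem2* and *Timd4* to 52% for *Cx3cr1* and *C1qb*. The background in the HPC lanes was not tested.

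Within cells, C1q genes were found with and without *Cx3cr1*. At E8.5 the 3 cells with *Cx3cr1* all held *Tyrobp* and *Fcer1g* and none of the C1q genes, and the 5 cells with *C1qb* or *C1qc* held no *Cx3cr1*, 1 of them with *C1qb* as its only member. The 1 E8.25 cell with *C1qb* held no *Cx3cr1* either, nor did 5 of the 9 *C1qb* cells at E9.5. At E9.5 the commonest set was *Cx3cr1*, *Tyrobp* and *Fcer1g* with no other member, in 16 of 46 cells. At E10.5 all 11 HPCs with *C1qa* and all 16 with *Trem2* also held *Cx3cr1*, while 44 and 39 cells held *Cx3cr1* without them. *C1qb* was without *Cx3cr1* in 6 cells, and *Cd68* in 16.

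The share of HPCs holding 3 or more of the 10 genes was 12.3% at E8.25 (9 of 73, 5.79 to 22.1), 24.7% at E8.5 (22 of 89, 16.2 to 35.0), 84.8% at E9.5 (39 of 46, 71.1 to 93.7) and 87.4% at E10.5 (76 of 87, 78.5 to 93.5). All 25 Mac held 6 or more, and 21 of them (84%) did so at 10 counts or more. No mesoderm, E8.5 EryP, E8.5 Mk or endothelial cell held 3, and 2 of 73 E10.5 Mk did (2.74%). In E10.5 EryP, which shared the Mac lane, 1 of 3 cells did, and 13 of 25 captured cells (52%). The intervals of E8.5 and E9.5 did not overlap, and those of E9.5 and E10.5 did. With 1 sample a stage this describes counting error over cells and tests no difference between stages. Without the 2 adaptors, 3 or more of the other 8 were held by no HPC at E8.25 or E8.5, which allows up to 4.11% and 3.37%, by 17.4% at E9.5 (7.82 to 31.4) and by 46.0% at E10.5 (35.2 to 57.0). At 10 counts or more the shares holding 3 were 2.74%, 10.1%, 56.5% and 52.9%.

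HPCs held 0 to 4 members at E8.25 and E8.5, 1 to 8 at E9.5 and 2 to 10 at E10.5, with medians of 1, 2, 3 and 4, and Mac held 6 to 10 with a median of 9. Sets of 6 or more were absent before E9.5, where 4 of 46 cells had them (8.70%, 2.42 to 20.8), and were held by 24 of 87 at E10.5 (27.6%, 18.5 to 38.2). Thinned to 840000 counts the latter share was 21.1% of 71 cells, and at 10 counts or more 16.1%. The E10.5 distribution had a gap: 12 cells held 6 and 3 held 7, none held 8, 5 held 9 and 4 held all 10. The 9 cells with 9 or 10 held 97.6% of the *C1qb* signal of E10.5 HPCs, 99.2% of *C1qc*, 78.8% of *Adgre1* and 51.2% of *Cx3cr1*, and 30.9% and 27.4% for the adaptors. These cells were picked by the number of members held, and each held every member but, in 5 of them, *Timd4*. Their shares of signal are therefore not independent of that choice. Without them *C1qb* was still held by 29 of 78 cells (37.2%), but at a mean of 2.66 CPM instead of 99.9, and *Cx3cr1* by 46 of 78 (59.0%) at 62.2 instead of 114.3 CPM.

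**Figure D4:**
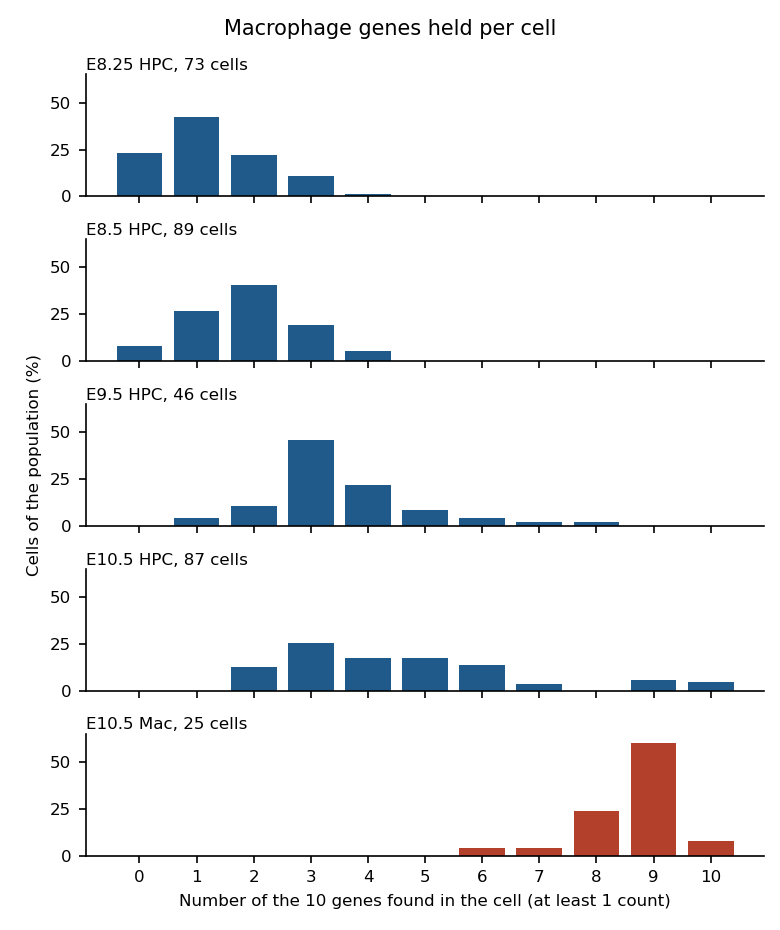
Bars give the percentage of cells of each population (y axis) that held a given number of the 10 genes (x axis). HPCs move from a peak at 1 gene at E8.25 to a peak at 3 at E9.5 and E10.5. At E10.5, 9 cells hold 9 or 10, where most Mac lie, and no cell holds 8. Whether this gap marks a distinct group was not tested.

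The 9 E10.5 HPCs with 9 or 10 members held macrophage genes and, in unequal measure, progenitor genes. All 9 held *Csf1r*, the receptor for the macrophage growth factor CSF1, at 118.3 to 1953 CPM (median 216), and all held *Maf* at 76.3 CPM or more. *Mpo*, the granule peroxidase of myeloid progenitors, was found in all 9, at 1.61 to 3088 CPM (median 176), and *Kit*, the stem cell factor receptor, in 6. *Cd34* was in 8 of 9 (median 389 CPM), against 14 of 25 Mac (median 0.430 CPM). Of the other progenitor genes *Runx1* was in 9 of 9, *Myb* and *Prtn3* in 7 each, *Gata2* in 4, *Cpa3* in 3 and *Elane* and *Gfi1* in 1 each, the last 4 at a median of 0 CPM. The cells were not alike. In 1 cell *Mpo* was at 1.61 CPM and *Kit*, *Cd34* and *Myb* were at 0. The cell with the most *C1qb* (2568 CPM) had 1953 CPM of *Csf1r*, 5.03 of *Mpo* and no *Kit*, while the cell with the least (13.6 CPM) had 3088 CPM of *Mpo* and 48.6 of *Kit*. *Mrc1*, the mannose receptor, was at 0 in 2 of the 9 and at 158.3 to 5299 CPM in the other 7. Their total counts ran from 1283827 to 3878536 (median 2025158), against a median of 1580111 in cells holding 3 to 5. Whether 2 cells at a capture site contributed was not tested.

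Across all E10.5 HPCs, other genes were set beside the number of members held, as a range and not as cell types. *Csf1r* had medians of 0, 0.647 and 124.7 CPM in the 11 cells with 1 to 2, the 52 with 3 to 5 and the 24 with 6 or more, and *Lyz2*, the macrophage lysozyme, 48.2, 66.1 and 200 CPM. *Irf8*, a transcription factor of monocytes and macrophages, had medians of 0, 0 and 43.0 CPM, and *Maf* 0.301, 0.445 and 84.2. *Gata1*, the factor of erythroid and megakaryocytic cells, had medians of 288, 4.77 and 0.405 CPM, and *Gata2*, a factor of progenitors and mast cells, 217, 68.0 and 54.8. *Mpo* was found in every cell of each range, at medians of 365, 562 and 443 CPM, and *Kit* had medians of 138.2 CPM in the middle range and 116.8 in the upper. The upper range was not uniform. In its 15 cells with 6 to 8 members the medians were 45.9 CPM for *Csf1r*, 0.579 for *Maf*, 5.16 for *Irf8* and 13.5 for *Gata1*, and *Mpo* had its highest median, 1401 CPM. In the 9 cells with 9 or 10 they were 216, 665, 47.3 and 0 CPM, with *Mpo* at 176. The *Maf* and *Gata1* differences between the middle and upper ranges thus came from those 9 cells. *Spi1*, which encodes PU.1, had medians of 1.43, 7.78 and 9.65 CPM, with 4.51 in the cells with 6 to 8 members and 17.7 in those with 9 or 10. The number held had a Spearman rho of 0.321 with total counts over the 87 cells.

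**Figure D5:**
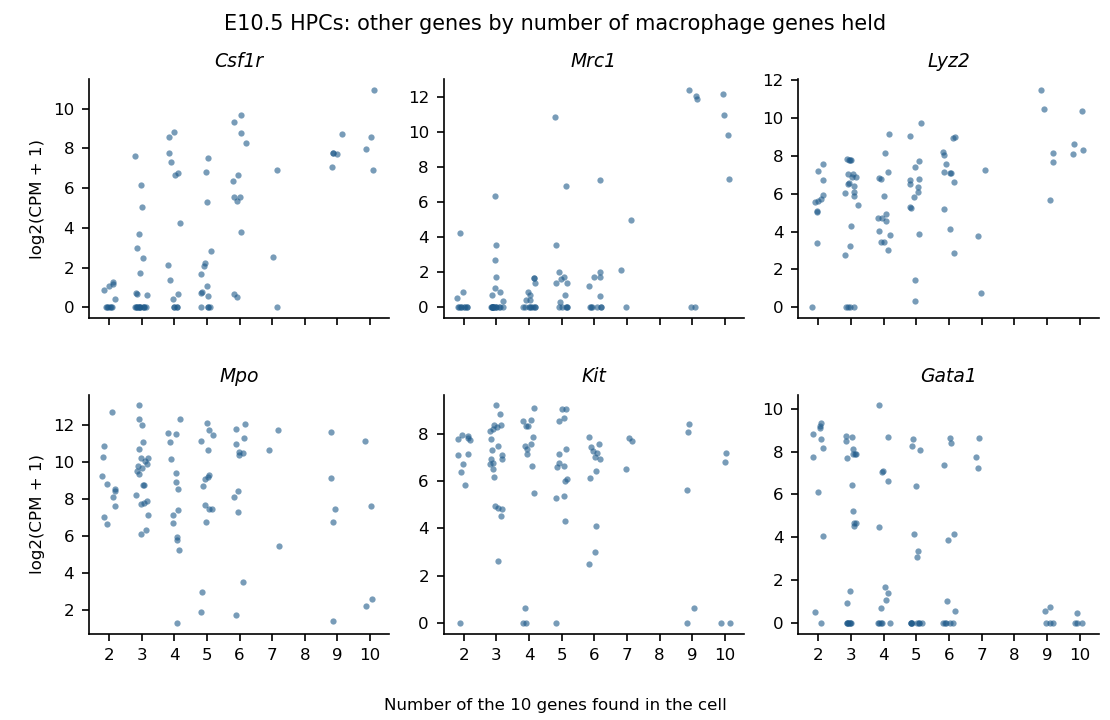
Each point is an E10.5 HPC, with the number of the 10 genes it held on the x axis and log2(CPM + 1) of another gene on the y axis. *Csf1r* medians go from 0 to 124.7 CPM between cells with 1 to 2 and with 6 or more, *Gata1* medians from 288 to 0.405 CPM with 13.5 CPM in cells with 6 to 8, and *Mpo* is above 0 in each cell.

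The share of HPCs with 3 or more members was higher among cells with *Csf1r* than among those without it. Of E8.5 HPCs, 13 of 35 with *Csf1r* (37.1%) and 9 of 54 without it (16.7%) held 3 or more members, and at E10.5 these were 55 of 60 (91.7%) and 21 of 27 (77.8%). At E8.25 they were 3 of 11 (27.3%) and 6 of 62 (9.68%), and at E9.5 34 of 39 (87.2%) and 5 of 7 (71.4%). The median number held was the same with and without *Csf1r* at E8.5 (2) and E9.5 (3), and was 5 against 3 at E10.5. Of the 24 E10.5 HPCs with 6 or more members, 23 held *Csf1r*.

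E10.5 Mac and E10.5 HPCs share stage and flow cell but not gate or lane. All 10 genes had a mean of 10 CPM or more in at least 1 of the 2 groups, and 9 were higher by 2-fold or more in Mac, where 22.4% of 9300 genes tested were higher and 24.4% lower. Of the 9, *C1qa*, *C1qc* and *Trem2* passed the filter through Mac alone and so were bound to be higher there. *Timd4* passed through HPCs alone. *C1qb* was 11.2-fold higher on the scale of mean CPM + 1 (1124 against 99.9 CPM), *C1qa* 11.1-fold (73.1 against 5.67), *C1qc* 11.0-fold (115.6 against 9.63) and *Cx3cr1* 8.32-fold (958 against 114.3). *Adgre1* was 5.39-fold higher (239 against 43.4 CPM), *Cd68* 3.71-fold (221 against 58.9), *Trem2* 3.62-fold (29.1 against 7.33), *Fcer1g* 2.83-fold (768 against 270) and *Tyrobp* 2.42-fold (542 against 223). *Timd4* lay at a log2 ratio of -0.57. The median log2 ratio was 2.16 over the 10 genes and -0.14 over all tested. The ranges of the 2 populations overlapped for every gene.

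Between neighbouring HPC stages, 2 of 10 genes passed the 10 CPM filter from E8.25 to E8.5, and 1 of them, *Tyrobp*, was 2-fold higher or more (15.1 against 6.41 CPM, log2 ratio 1.12), where 2.86% of 8879 genes were higher and 3.82% lower. It passed through E8.5 alone. *Fcer1g* lay just under the threshold (86.6 against 43.6 CPM, 0.97). From E8.5 to E9.5, 5 passed and 5 were higher (11.5% of 9250 genes higher, 13.1% lower): *Cx3cr1* (63.3 against 0.558 CPM, 5.37), *Tyrobp* (157.6 against 15.1, 3.30), *C1qb* (13.9 against 0.791, 3.06), *Fcer1g* (421 against 86.6, 2.27) and *Cd68* (13.7 against 4.90, 1.32). Genes that pass through the later stage alone had to differ, which holds for *Cx3cr1*, *C1qb* and *Cd68*. Without the highest cell of each group *C1qb* missed the filter (8.54 against 0.489 CPM) and its call was lost, so 4 passed and 4 were higher. *Fcer1g* was then at a log2 ratio of 1.36. From E9.5 to E10.5, 7 passed and 4 were higher (5.86% of 9050 genes higher, 8.73% lower): *Adgre1* (43.4 against 3.84 CPM, 3.20), *Timd4* (11.1 against 0.697, 2.83), *C1qb* (99.9 against 13.9, 2.76) and *Cd68* (58.9 against 13.7, 2.03). *Adgre1* and *Timd4* passed through E10.5 alone and so had to differ. Without the highest cell of each stage *Timd4* missed the filter (2.09 against 0 CPM) and its call was lost, while *Cx3cr1* passed 2-fold (92.3 against 42.2 CPM, 1.11), so the count stayed at 4 with 1 gene changed. *Cx3cr1* (0.84), *Tyrobp* (0.50) and *Fcer1g* (-0.64) lay between the thresholds. *C1qa* (5.67 against 0 CPM), *C1qc* (9.63 against 1.06) and *Trem2* (7.33 against 0.851) missed the filter.

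Of 20 genes for ITAM receptors and their signalling, all were in the table, 16 were tested, and 7 were higher and none lower in Mac than in E10.5 HPCs (median log2 ratio 0.46). Over all 9300 genes 22.4% were higher and 24.4% lower, which stands beside each list count that follows. A gene that passed the filter through 1 of the 2 groups alone had to be higher in that group. Of the 7, this holds for *Fcgr4*, *Hcst* and *Siglech*, at 5.85, 2.42 and 2.16 CPM in HPCs. *Fcgr3* (473 against 199 CPM) and *Fcgr1* (179 against 37.8 CPM), genes of Fc receptors that signal through the gamma chain, were among the 7. The phosphatase gene *Ptpn6* (log2 ratio 0.36) and the kinase gene *Lyn* (0.27) were not. Several were already present in early HPCs: *Lyn* was in 98.6% and *Ptpn6* in 94.5% of E8.25 HPCs, and *Fcgr3* in 60.3%, while *Fcgr1* was in 1.37% at E8.25 and 43.7% at E10.5.

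Of 19 other complement genes, 12 were in the table, 10 were tested, and 5 were higher and 3 lower in Mac (median 1.21). *Cd55* and *Cd59a*, among the 3, passed the filter through HPCs alone and so had to be lower in Mac. *Cfp*, the gene of properdin, which stabilises the alternative pathway convertase, had a log2 ratio of 4.94 (571 against 17.7 CPM), *C5ar1* 1.93 and *C3ar1* 1.92, the last 2 encoding anaphylatoxin receptors. The proteases and substrates that act after C1q in the classical pathway were nearly absent. *C1ra*, *C1s1*, *C2*, *C3* and *C4b* did not pass the gene filter, and in all 1073 captured cells they were found in 10, 1, 47, 17 and 7 cells, with 4 Mac holding *C1ra* at 27 counts in all and 4 holding *C4b* at 5 counts in all. *C1s1*, *C2* and *C3* were found in 0 of 25 Mac, which allows a share of up to 12%.

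Of 19 genes for phosphatidylserine and apoptotic cell uptake, 17 were in the table, 14 were tested, and 7 were higher and 2 lower in Mac (median 1.08). *Gas6* and *Itgb5*, among the 7, passed the filter through Mac alone and so had to be higher there. *Cd36* (log2 ratio 4.74), *Itgav* (4.61) and *Stab1* (3.59), which encode receptors for dying cells, were higher, while the GTPase gene *Rac2* lay at -0.95 (472 against 911 CPM). *Itgav* had a Mac median of 4.38 CPM (21 of 25 cells holding it) against 13.5 CPM in E10.5 HPCs (77 of 87), so its direction turns when medians are compared in place of means (589 against 23.2 CPM). Of 19 lysosome genes, all were tested and 9 were higher and none lower (median 0.81). *Lamp1* (2.83), *Ctsz* (1.59) and *Ctsb* (1.22) were among them and *Ctsc* (0.35) was not. *Ctsb* was found in 100% of E8.5 EryP, where the C1q genes were found in none. Of 15 macrophage identity genes in the table, 14 were tested and 10 were higher and none lower (median 2.29), led by level by *Mrc1* (3493 against 265 CPM), *Maf* (1832 against 188), *Laptm5* (881 against 698, log2 ratio 0.34) and *Csf1r* (763 against 99.6). *P2ry12*, among the 10, passed the filter through Mac alone. Of 8 progenitor genes tested, 6 were lower and none higher (median -3.30). *Mpo* was at 11.1 against 1202 CPM, *Cd34* at 85.4 against 403 and *Kit* at 84.0 against 162 (log2 ratio -0.94). Among the 6, *Gata2*, *Prtn3* and *Cpa3* passed through HPCs alone and so had to be lower in Mac.

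Beyond the 10 members, 8 genes had a log2(mean CPM + 1) over the 13 populations that ran most like the average of the set. These were *Fcgr1*, *Fcrls*, *Cd86*, *Cd52*, *Tifab*, *Ccl9*, *Itgam* and *Ly86*, with Pearson r between 0.978 and 0.987. The 13 populations share libraries of very unequal cell type. *Fcgr1* is also in the ITAM list and *Itgam* in the complement list. All 8 were chosen from 7533 genes for this likeness, and the values describe it. *Cd86*, a costimulatory ligand, had a mean of 1825 CPM in Mac, 60.7 in E10.5 HPCs and 28.7 in E9.5 HPCs, and *Fcrls*, an Fc receptor-like gene, 319, 57.9 and 10.7 CPM. Between members, r over the same 13 means was highest for *C1qc* and *Trem2* at 0.990 and lowest for *C1qa* and *Fcer1g* at 0.517. Within the 87 E10.5 HPCs the 8 genes that ran most with the number of members held were *Ctss*, *Ly86*, *Rbm47*, *C3ar1*, *AI607873*, *Pld4*, *Slfn2* and *Csf1r*, at Spearman rho of 0.581 to 0.634 and, after thinning, 0.466 to 0.690. Of these genes, *Ctss*, *C3ar1* and *Csf1r* are also in the lists above. *Ctss*, a lysosomal protease of antigen-presenting cells, was found in 35.6% of the 87 HPCs. It was in 9 of the 9 with 9 or 10 members, at a median of 207 CPM there.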

How the data were processed

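Single cells of 13 sorted mouse yolk sac populations were analysed from tables the authors deposited. The count values were made by the authors: cells were captured on the Fluidigm C1, full-length cDNA libraries were made with Nextera XT, and paired-end reads were aligned with Rsubread (Subread) to mouse GRCm38 and counted per gene with featureCounts, for all captured cells and for the 926 that passed a scater filter. The signal values, called CPM here, were made by the authors from the filtered counts with 1 scran size factor per cell; per cell they sum to between 699615 and 4176737, so they are not CPM in the strict sense. No alignment or counting was repeated, and no doublet caller was run.

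A gene was held at 1 count or more. Shares carry exact (Clopper-Pearson) 95% intervals, and a share of 0 an upper limit of 3 cells of the total. Ratios are log2 of mean CPM + 1, called at 2-fold among genes with 10 CPM or more in either group. Such a ratio understates the change of low genes. Thinning drew 840000 counts per cell without replacement and left out 46 shallower cells, and 71 of the 87 E10.5 HPCs remained. No 2 cells had identical counts. Groups were taken from the labels, which name no embryo or pool. The genes and lists were chosen with earlier results of these data known. Of each list the 4 genes highest in E10.5 Mac are named, except for a gene that is not reported here, with marker genes and the 8 genes most alike by 2 measures. *Gm33858*, *C1ra*, *C1s1*, *C2*, *C3*, *C4b*, *Fcgr4*, *Hcst*, *Siglech*, *Cd55*, *Cd59a*, *Gas6* and *Itgb5* are named after their values were seen. Coordinates and exon lengths (the union of exons) are from GENCODE M21 on GRCm38 and promoters from RefSeq. The steps were tested on simulated data. Alternatives were 10 counts, thinning, all captured cells, 2 or 5 members, no adaptors, onset at 25% or 50%, own totals, medians, a pseudocount of 10 and no filter. Added after seeing the data were the E10.5 HPCs without the 9 cells with 9 or 10 members and means without the highest cell. Python 3.11.15 was used with pandas 2.3.3, numpy 2.4.6, scipy 1.17.1 and matplotlib 3.10.9.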

Additional observations from a re-analysis of the deposited data

Results flagged for a closer look

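Members were also counted in captured cells that the authors' filter left out. All 16 left-out E10.5 Mac held 3 or more members (100%, exact 95% interval 79.4 to 100), with 46508 counts of *Cx3cr1* and 29046 of *C1qb* among them, against 0 of 18 left-out E8.5 EryP, and their median total was 1107514 counts.

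Of the 22 left-out E10.5 EryP, 12 held 3 or more members (54.5%, 32.2 to 75.6), against the same 0 of 18. These cells share a lane with Mac, and their members summed to few counts: 16 of *Cx3cr1* in 12 cells, 16 of *C1qb* in 12 and 17 of *Fcer1g* in 10. Reads passed between libraries of a lane and free RNA were not tested.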

How the results depend on the processing

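No paired analysis was possible because no test was made and the cell numbers in the labels only name cells. Shares holding 3 or more members stayed within their first interval for all 4 HPC stages and Mac on thinned cells and on all captured cells, and at E10.5 without the 9 cells with 9 or 10 members. At 10 counts they were 2.74%, 10.1%, 56.5% and 52.9% in stage order. With 2 or more members as the threshold they were 34.2%, 65.2%, 95.7% and 100%, with 5 or more 0%, 0%, 17.4% and 44.8%, and without *Tyrobp* and *Fcer1g* 0%, 0%, 17.4% and 46.0%. The rise from E8.5 to E9.5 was present in each. Members with onset by E9.5 were 7, but 6 on thinned cells and on all captured cells, 5 at 10 counts, 4 with onset at 25% and 3 at 50%, and those by E10.5 were 9, but 7 at 10 counts, 6 at 25% and 4 at 50%. The count of members 2-fold higher was 9 in Mac under every setting run. From E8.25 to E8.5 it was 1, but 0 with a pseudocount of 10 and 2 without the highest cell of each group. From E8.5 to E9.5 it was 5, but 6 with no filter and 4 with a pseudocount of 10 or without the highest cell. From E9.5 to E10.5 it was 4, but 7 with no filter. There it was 3 with a pseudocount of 10, where the *Timd4* call was lost (log2 ratio 0.98), and 4 without the highest cell, with *Cx3cr1* in place of *Timd4*. On each cell's own total, genes higher and lower in Mac were 1587 and 2649 (2085 and 2271 with the deposited CPM; median log2 ratio -0.32 against -0.14), and from E9.5 to E10.5 635 and 524 (530 and 790). Without the highest cell of each group the median over all genes of Mac against E10.5 HPCs was -0.74. With 1 to 9 counts in many cells, the detection threshold is what limits the shares of *Cx3cr1*, *C1qb* and *Adgre1*.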
